A study of Danio rerio with 6 samples.

Results

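The genes of SREBP control and of the LDL receptor were followed in adult zebrafish liver: srebf1, srebf2, scap, insig1, insig2, ldlra, ldlrb and mylipa. They were taken by name from a gene table of 23354 rows, where each of the 8 names stood on 1 row, and all 8 passed the filter on low values. RNA was sequenced from 3 liver libraries of fish labelled capn3b-/- mutant and 3 of fish labelled wild type AB, AB being a laboratory strain; all were adults, and no treatment is named. The gene capn3b encodes a calpain 3, a calcium-dependent protease, and the series set out to find the genes that differ between the genotypes. The allele, the strain behind the mutant, the sex and exact age of the fish, and whether each library came from its own fish are not given in the labels. The p-values therefore measure only the spread between these libraries, which may be technical.

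SREBPs are transcription factors made as membrane proteins of the endoplasmic reticulum. When sterols are scarce, the escort protein SCAP carries them to the Golgi, where proteases release the active fragment; when sterols are plentiful, INSIG proteins hold SCAP and its cargo back. In mammals the product of SREBF2 mainly drives cholesterol synthesis and the LDL receptor, which takes up lipoprotein cholesterol, and that of SREBF1 mainly drives fatty acid synthesis. MYLIP, also called IDOL, is a ubiquitin ligase that sends the LDL receptor to degradation and is induced by the sterol-sensing nuclear receptor LXR.

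Expression is given as FPKM, a read count divided by gene length and sequencing depth. Whole reads could be recovered from them for 99.996% of genes within 0.05 reads, at depths of 17905457 to 18470779 reads in mutant libraries and 16858409 to 19492592 in wild type libraries. The mutated gene capn3b itself had 0, 0 and 1 reads in the mutant libraries and 0 in each wild type library, so it checks no label. Of 11164 tested genes, 1268 passed an adjusted p of 0.05 (limma on log2(FPKM + 1), Benjamini-Hochberg), 660 higher and 608 lower in the mutant. That count was 516 without mutant replicate 1, 536 without mutant replicate 2, 801 without wild type replicate 1 and 414 without wild type replicate 2. Hepatocyte markers summed to 176400 to 182200 FPKM in mutant libraries and 165500 to 177400 in wild type libraries, with 3 of 20 higher and 2 lower in the mutant (7 and 5 at an unadjusted p under 0.05, 1 and 3 by voom on recovered reads). Each marker sum is over all listed markers in the gene table, tested or not. Of 18 tested macrophage markers, 9 were higher and 0 lower in the mutant (15 and 0 unadjusted, 11 and 0 by voom), and the 19 in the table summed to 481.4 to 754.1 FPKM in mutant and 280.2 to 482.0 FPKM in wild type libraries. Among those called, mpeg1.2 and cybb passed the filter on low values only with the mutant libraries, where they are high. Of 9 tested erythrocyte markers 6 were lower and 0 higher (8 and 0 unadjusted, 7 and 0 by voom), and the 11 in the table summed to 193.0 to 222.7 FPKM in mutant and 375.7 to 434.4 FPKM in wild type libraries. Among those called, epb41b and sptb passed the filter on low values through the wild type libraries alone, where they are high. Of 7 bile duct markers 2 were higher and 0 lower (4 and 0 unadjusted, 2 and 0 by voom), at 1129 to 1444 against 702.0 to 742.4 FPKM. No marker of these 4 lists was at 0 in any library. Of 10 tested endothelial and stellate markers none passed (2 higher and 0 lower unadjusted, 1 and 0 by voom). The 14 in the table summed to 36.63 to 49.54 FPKM in mutant and 31.7 to 37.47 FPKM in wild type libraries, and lyve1b, not tested, was at 0 in 5 libraries. Of 12 tested pancreas markers none passed by limma, unadjusted or by voom, and the 16 in the table summed to 254.0, 712.7 and 903.6 FPKM in mutant libraries and 2217, 341.4 and 264.5 FPKM in wild type libraries. Of the 4 not tested, CELA1 was at 0 in mutant replicate 1, gcga in wild type replicate 3, and sst2 in all mutant libraries and wild type replicate 3. The part of these cell markers in the results below was not tested, and in bulk liver a change in the number of cells of a type cannot be told apart from a change in RNA per cell.

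Transcripts of srebf2 and ldlrb were higher in the mutant liver. The call of ldlrb held in all 13 alternatives that tested it, and that of srebf2 in only 5 of 14. Transcripts of 3 other members lay outside the wild type range without passing the threshold, and srebf1, insig2 and mylipa overlapped between the genotypes. Of the 8 members 2 rose and 0 fell, 25.0%, where 11.4% of all tested genes were called, 5.91% as higher and 5.45% as lower; at an unadjusted p under 0.05 there were 4 higher and 1 lower, and by voom 3 and 1. Groups did not overlap for 5 members, against 33.8% of all tested genes: 4 lay above the wild type range (19.1% of all) and 1 below it (14.7%). With 8 genes, such counts are a description and nothing more is read from them. The median log2 fold change of the members was 0.22, beside 0.05 for all tested genes. Only ldlrb was called after dropping mutant replicate 1 or either of wild type replicates 2 and 3, under median scaling and with no filter. With a filter of 5 FPKM, where ldlrb, scap and mylipa are not tested, only srebf2 was called. By voom 4 members were called, ldlrb, scap, insig1 and ldlra, and srebf2 was not.

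**Figure D1:**
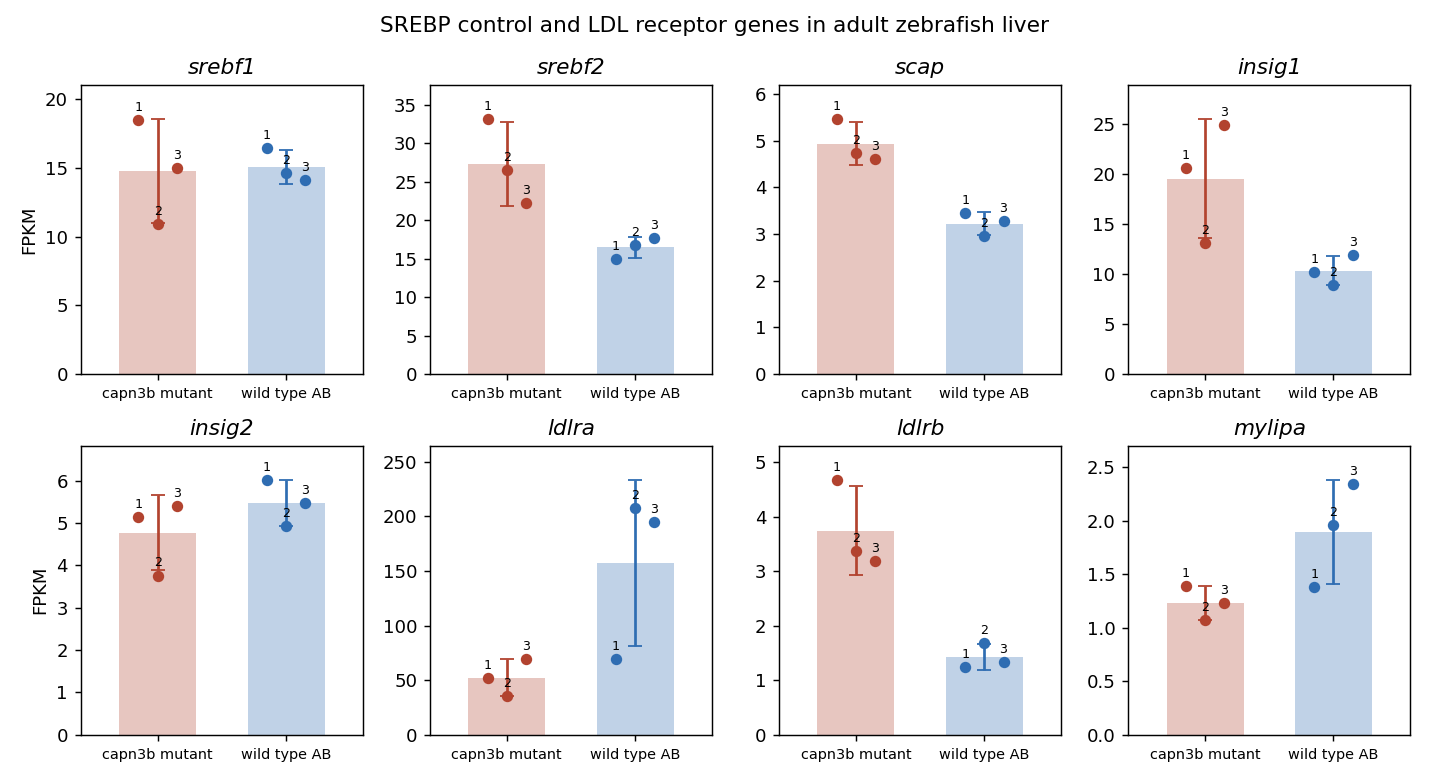
FPKM of the 8 genes in each library, with bars for the group mean, whiskers for the SD of 3 libraries and numbers for the replicate. The mutant points of srebf2, scap, insig1 and ldlrb all lie above the wild type points, and wild type replicate 1 of ldlra, at 69.8 FPKM, sits beside mutant replicate 3, at 69.1 FPKM.

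Both transcription factor genes were well expressed. Positions are those of the authors' gene table; the submitters' processing notes name GRCz11. The gene srebf2 (ENSDARG00000063438, chromosome 3, 1338453 to 1598731, plus strand) had 33.1, 26.5 and 22.2 FPKM in mutant libraries and 15.0025, 16.7 and 17.7 FPKM in wild type libraries. Every mutant library lay above every wild type library. Means were 27.3 ± 5.5 and 16.5 ± 1.4 FPKM (SD, n = 3 each), a ratio of 1.66, for a log2 fold change of 0.68 and a standard error of 0.17 (limma adjusted p = 0.0444). This call lies close to the threshold. It was kept in 5 of 14 alternatives, whose adjusted p ranged from 0.0328 to 0.135. The call was lost under median scaling, with no filter, by voom and with the replicate number as a block. Of the libraries, dropping mutant replicate 1 (0.135) or 2 (0.11) or any wild type library (0.116, 0.12 and 0.065) also ended it. The span of srebf2 covers 260279 bases and overlaps 14 other genes of the table; no source says that strand was used in counting, and reads may be shared with them.

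Transcripts of srebf1 (ENSDARG00000067607, chromosome 3, 61824619 to 61850706, minus strand) showed no such separation. They stood at 18.5, 10.9 and 14.97 FPKM in mutant libraries and 16.4, 14.6 and 14.1 FPKM in wild type libraries, so that the mutant range enclosed the wild type range. The log2 fold change was -0.05 with a 95% interval of -0.50 to 0.40 (limma adjusted p = 0.894), and it changed sign without mutant replicate 2, at 0.14, and without wild type replicate 1, at 0.01. Because FPKM is per length and the library scaling cancels within a library, the pair can also be set against each other. The ratio of srebf1 to srebf2 FPKM was 0.557, 0.412 and 0.674 in mutant libraries and 1.096, 0.875 and 0.797 in wild type libraries. It was lower in every mutant library, by 0.77 on the log2 scale on average, with an exact two-sided permutation p of 0.1, which is the smallest that 3 libraries against 3 allow. The event lists described below do not keep this separation.

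The escort and retention genes came next. The escort gene scap (ENSDARG00000018096, chromosome 16, 41110129 to 41153750) had 5.46, 4.73 and 4.61 FPKM in mutant libraries and 3.44, 2.95 and 3.28 FPKM in wild type libraries. The groups did not overlap. Means were 4.93 ± 0.46 and 3.22 ± 0.25 FPKM (SD, n = 3 each). Its log2 fold change came to 0.49, with a 95% interval of 0.19 to 0.79, and the limma adjusted p of 0.0503 missed the threshold. It ranged from 0.0495 to 0.163 over 13 alternatives and passed in 2, robust moderation and voom.

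For the retention gene insig1 (ENSDARG00000010658, chromosome 7, 40728393 to 40734700), the mutant libraries held 20.6, 13.1 and 24.8 FPKM and the wild type libraries 10.2, 8.94 and 11.8 FPKM. All mutant values were above the wild type values, and mutant replicate 2 was the nearest to them. Means were 19.5 ± 6.0 and 10.3 ± 1.5 FPKM (SD, n = 3 each). The log2 fold change of 0.82, with a 95% interval of 0.28 to 1.36, did not pass (limma adjusted p = 0.0611). Its adjusted p ranged from 0.0266 to 0.181 over 14 alternatives. It passed in 3 of them: without mutant replicate 2 (0.0266), by voom (0.0492) and with the replicate number as a block (0.0441).

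Its paralogue insig2 (ENSDARG00000037203, chromosome 9, 748316 to 760069) stood at 5.14, 3.76 and 5.40 FPKM in mutant libraries and 6.02, 4.94 and 5.48 FPKM in wild type libraries. These ranges overlap, and the interval of the log2 fold change ran from -0.54 to 0.19 around -0.18 (limma adjusted p = 0.514). The ratio of insig1 to insig2 FPKM was 4.003, 3.48 and 4.6 in mutant libraries and 1.70, 1.81 and 2.16 in wild type libraries. On the log2 scale the mutant averaged 2.0 ± 0.20 and the wild type 0.91 ± 0.18 (SD, n = 3 each), a difference of 1.09 (exact permutation p = 0.1). Leaving out any single library kept this difference between 0.99 and 1.19. The level of the ratio depends on the estimate. By the event lists described below, insig1 averaged 41.3 FPKM in mutant and 21.1 FPKM in wild type libraries. There insig2 averaged 5.59 and 5.93 FPKM, and the ratio was higher than by the gene table in both genotypes.

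Of the receptor genes, ldlrb was higher in the mutant, and ldlra, with a lower mutant mean, did not pass. The less abundant, ldlrb (ENSDARG00000026759, chromosome 6, 84455 to 91590), had 4.67, 3.37 and 3.19 FPKM in mutant libraries and 1.25, 1.69 and 1.33 FPKM in wild type libraries. These values rest on 261, 188 and 184 mutant reads and 76, 91 and 70 wild type reads. The lowest mutant library had a 95% counting interval (exact binomial) of 2.75 to 3.69 FPKM and the highest wild type library one of 1.36 to 2.07 FPKM, so the groups were apart by more than counting error. The means were 3.74 ± 0.81 and 1.42 ± 0.23 FPKM (SD, n = 3 each), a ratio of 2.63. The log2 fold change of 0.96, with a standard error of 0.16, passed at a limma adjusted p of 0.0127 and in all 13 alternatives that tested the gene (0.0123 to 0.0456).

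Transcripts of ldlra (ENSDARG00000029476, chromosome 3, 19149569 to 19173949) were far more abundant, at 52.5, 35.4 and 69.1 FPKM in mutant libraries and 69.8, 207.6 and 194.6 FPKM in wild type libraries. The groups were apart by less than counting error: wild type replicate 1, with a counting interval of 68.1 to 71.4 FPKM, lay beside mutant replicate 3, with one of 67.4 to 70.8 FPKM, while the other wild type libraries held far more. Means were 52.3 ± 16.9 and 157.3 ± 76.1 FPKM (SD, n = 3 each), a ratio of 0.333. A log2 fold change of -1.47, with a 95% interval of -2.46 to -0.48, did not pass (limma adjusted p = 0.0637). It passed in 2 of 14 alternatives, whose adjusted p ranged from 0.0124 to 0.193. Without wild type replicate 1 it was -1.97, at 0.0124, and by voom on all 6 libraries it was -1.535, at 0.048. Wild type replicate 1 also had the highest sum of pancreas markers of the 6 libraries, and the part of that in the ldlra value was not tested.

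Together the receptor genes summed to 57.1, 38.7 and 72.3 FPKM in mutant libraries and 71.0, 209.3 and 195.9 FPKM in wild type libraries. The share of ldlra in that sum was 91.8%, 91.3% and 95.6% in mutant libraries and 98.2%, 99.2% and 99.3% in wild type libraries. The level of ldlra was thus 11.2, 10.5 and 21.6 times that of ldlrb in mutant libraries and 55.8, 122.8 and 146.1 times in wild type libraries. On the log2 scale the ldlrb to ldlra ratio was higher in the mutant by 2.87 (exact permutation p = 0.1), and between 2.60 and 3.29 with any single library left out. The 3 within-library ratios from the gene table were the only ones tested, and their Benjamini-Hochberg adjusted exact permutation p was 0.1 for each.

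**Figure D2:**
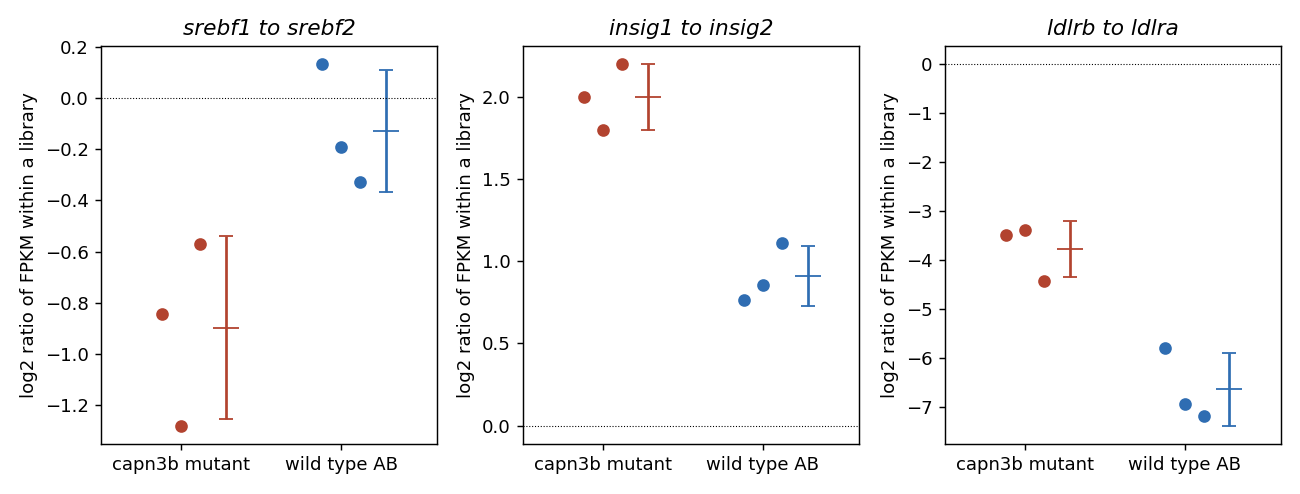
Log2 ratio of FPKM from the gene table within each library for the 3 pairs of related genes, with the group mean and SD of 3 libraries beside the points. The insig1 to insig2 and the ldlrb to ldlra ratios are higher, and the srebf1 to srebf2 ratio lower, in every mutant library.

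The ligase gene mylipa (ENSDARG00000008859, chromosome 19, 26756513 to 26794432) was the lowest member in the mutant. It had 1.396, 1.07 and 1.23 FPKM in mutant libraries and 1.38, 1.96 and 2.35 FPKM in wild type libraries, on 50 to 65 mutant reads and 70 to 103 wild type reads. Wild type replicate 1 fell within the mutant range and the other wild type libraries lay above it. Its log2 fold change of -0.36 had a 95% interval of -0.75 to 0.02 (limma adjusted p = 0.198), and no alternative passed.

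**Figure D3:**
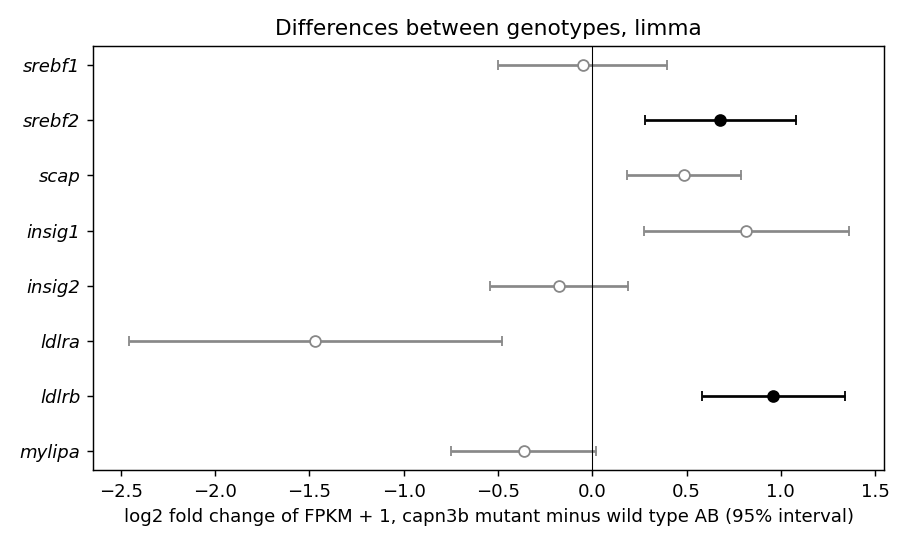
Log2 fold change of FPKM + 1, capn3b mutant minus wild type AB, with 95% intervals that are not adjusted for the number of genes. Filled points, srebf2 at 0.68 and ldlrb at 0.96, passed the adjusted threshold; the intervals of scap, insig1 and ldlra also leave out 0 but did not pass it.

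The order of levels differed between the genotypes below its first places. In the mutant it ran ldlra, srebf2, insig1, srebf1, scap, insig2, ldlrb and mylipa, with overlapping ranges between srebf2 and insig1, insig1 and srebf1, scap and insig2, and insig2 and ldlrb. In the wild type it ran ldlra, srebf2, srebf1, insig1, insig2, scap, mylipa and ldlrb, with overlap between srebf2 and srebf1 and between mylipa and ldlrb. This order depends on the estimate. By the event lists described below, insig1 averaged 41.3 FPKM in mutant and 21.1 FPKM in wild type libraries. There it stood above srebf2 (27.3 and 17.9 FPKM) and srebf1 (14.2 and 13.0 FPKM) in both genotypes. Among all genes of a library, ldlra stood between the 95.3rd and the 98.6th percentile and mylipa between the 54.0th and the 65.7th.

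The deposited event lists give a second estimate from the same libraries, as FPKM of assembled transcripts by start and end site, so they are not independent of the gene table. Summed over the transcripts of a gene, they put mutant above wild type for srebf2, scap, insig1 and ldlrb, and mutant below wild type for ldlra and mylipa, each without overlap. The exact permutation p was 0.1 for each of these 6 genes, and 0.133 adjusted over the 8. The srebf1 to srebf2 ratio did not separate the genotypes in the lists. In wild type replicate 3, with srebf1 at 9.88 and srebf2 at 18.3 FPKM, it lay within the mutant range. Transcripts of insig1 averaged 41.3 FPKM in mutant libraries, against 21.1 FPKM in wild type libraries, and those of ldlra 68.5 FPKM against 204.2 FPKM in wild type libraries. For ldlra the groups were only narrowly apart, at 95.4 FPKM in wild type replicate 1 and 90.4 FPKM in mutant replicate 3. That wild type value comes from an assembled locus that also takes in kri1. For mylipa the lists gave 1.43, 1.13 and 1.25 FPKM in mutant libraries and 1.49, 2.07 and 2.44 FPKM in wild type libraries, so that replicate 1 of each genotype stood close together.

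Start sites were mostly shared between libraries. Both srebf1 and srebf2 had 1 listed start in every library, as had insig2, ldlra, ldlrb and mylipa; that of ldlrb was listed at 0 FPKM in 5 libraries, so its level was taken from its ends. A second start of scap, in the exon ending at 41144845, took 22.0% and 36.1% of its transcript FPKM in mutant replicates 1 and 3 and 34.2% in wild type replicate 1, and it was not listed in the remaining libraries. It therefore appeared in both genotypes. The second insig1 start, in the exon that begins at 40733469, was at 0 FPKM in every library.

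End sites of ldlrb and srebf1 set wild type replicate 3 apart from the other libraries. That of srebf1 lay at the exon edge 61827553 there, at 9.88 FPKM, and at 61824839 in the other 5 libraries. The FPKM of ldlrb lay wholly at the end exon beginning at 91120 in 5 libraries, whereas wild type replicate 3 had 0.143 FPKM there, 0.7145 at the end exon beginning at 91558 and 0.5435 at that beginning at 86573. The sum over ends in that library, 1.401 FPKM, was close to the 1.25 and 1.36 FPKM of the other wild type libraries. For ldlra it was wild type replicate 1 that stood apart. Its only listed ldlra end exon began at 19204799 and had 1.82 FPKM, while its ldlra start had 95.4 FPKM. In the other 5 libraries the listed ldlra end exon began at 19171754.

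Assembled ldlra transcripts varied in their 3' part. The exon from 19169989 to 19170258, of 270 bases, was left out of all ldlra FPKM in 5 libraries and was included in 30.8% in wild type replicate 3. Retention of the intron between exon edges 19164617 and 19164709 was listed in 4 libraries, at 21.8% and 22.3% in mutant replicates 2 and 3 and 73.0% and 30.8% in wild type replicates 1 and 3. In wild type replicate 1, the wild type library with the low ldlra level, the lists join ldlra with its neighbour kri1 in 1 assembled locus. These percentages come from transcript assembly in single libraries and have no test across the genotypes.

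Some members share a chromosome. Of the 8 genes 3, srebf1, srebf2 and ldlra, lie on chromosome 3, which holds 5.25% of the genes of the table, and the remaining 5 lie on 5 different chromosomes. Chromosome 20, the one of capn3b, holds 0 of the members.

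Around the members, genes of cholesterol synthesis were higher in the mutant and several listed genes of fatty acid synthesis and lipogenesis were lower. Of 22 tested genes of cholesterol synthesis, known in mammals as targets of SREBP-2, 10 rose, 0 fell and 12 did not pass (15 and 0 at an unadjusted limma p under 0.05, 10 and 0 by voom), 45.5% against 11.4% of all tested genes. The list is wider than the enzymes of synthesis: it takes in the sterol transfer gene stard4, which is among those that rose (limma adjusted p = 0.0246). The median log2 fold change of the list was 0.79, beside 0.05 for all tested genes; all 22 were above 0, and 21 under median scaling. Transcripts of hmgcs1, the synthase ahead of the rate-limiting reductase, stood at 77.8, 57.5 and 87.0 FPKM in mutant libraries and 27.01, 21.7 and 38.8 FPKM in wild type libraries (limma adjusted p = 0.0159). The decarboxylase gene mvda had 35.1, 23.9 and 30.2 FPKM in mutant libraries and 15.4, 13.5 and 9.89 FPKM in wild type libraries (limma adjusted p = 0.015), and a neighbouring row named mvdb overlaps it. The reductase genes hmgcra and dhcr7 had the smallest p of the list, with log2 fold changes of 1.18 and 1.07, and kept their calls in all 14 alternatives. Both hmgcs1 and mvda lost theirs after dropping mutant replicate 1 or wild type replicate 2. The count fell to 2 without mutant replicate 1, to 3 without wild type replicate 2 and to 5 with no filter. The paralogue of hmgcra in this list, hmgcrb, singled out after its values were seen, overlapped between the genotypes. It averaged 8.57 FPKM in mutant and 8.13 FPKM in wild type libraries, a log2 fold change of 0.063 (limma adjusted p = 0.82).

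Among listed genes of fatty acid synthesis and lipogenesis, several of them known in mammals as targets of SREBP-1, every gene that passed was lower. The list is wider than the enzymes that build fatty acids, and takes in gpat3, lpin1 and thrsp. Of 17 tested genes 6 fell, 0 rose and 11 did not pass (7 lower and 2 higher unadjusted, 6 and 0 by voom). That is 35.3%, where 11.4% of all tested genes were called, at a median of -0.64 on the log2 scale. The spot 14-like lipogenic gene thrsp had 12.1, 12.7 and 10.97 FPKM in mutant libraries and 60.1, 114.0 and 96.4 FPKM in wild type libraries (limma adjusted p = 0.00137). The acyltransferase gene gpat3 had 9.62, 9.19 and 12.4 FPKM in mutant libraries and 23.9, 28.2 and 19.5 FPKM in wild type libraries (0.0109). The phosphatidate phosphatase gene lpin1 fell by 2.06 and the acetyl-CoA carboxylase gene acacb by 0.79 on the log2 scale. The fatty acid synthase gene fasn, singled out after its values were seen, had 7.01, 4.94 and 6.72 FPKM in mutant libraries and 11.3, 12.1 and 20.6 FPKM in wild type libraries. The carboxylase gene acaca, which did not pass (limma adjusted p = 0.0749) and was also picked after its values were seen, lay on the other side, at 11.97, 8.58 and 6.25 FPKM in mutant libraries and 3.63, 5.68 and 4.89 FPKM in wild type libraries. The count was 3 without mutant replicate 1, 2 without wild type replicate 2 and 3 with no filter; lpin1 and acacb each overlap another gene of the table. The calls of thrsp and gpat3 held in all 14 alternatives, that of lpin1 in all but the one without wild type replicate 2, and that of acacb was lost in 7, among them those without mutant replicate 1 or 3 or any wild type library.

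Other LDL receptor relatives and uptake genes were higher where they passed. Of 16 tested genes of the receptor family, uptake and turnover, 4 rose, 0 fell and 12 did not pass (7 and 0 unadjusted, 3 and 0 by voom), 25.0% beside 11.4% of all tested genes. The list's median log2 fold change was 0.21. The receptor gene lrp1ab had 49.0, 45.6 and 36.5 FPKM in mutant libraries and 21.9, 22.1 and 26.6 FPKM in wild type libraries (limma adjusted p = 0.0178). The very low density lipoprotein receptor gene vldlr had 2.53, 5.43 and 5.93 FPKM in mutant libraries and 0.836, 0.842 and 1.70 FPKM in wild type libraries (0.0224). The sorting nexin gene snx17 and the clathrin adaptor gene dab2 rose by 0.78 and 1.2 on the log2 scale, dab2 most in mutant replicate 2, at 6.11 FPKM. Their limma adjusted p was 0.039 and 0.0415; snx17 lost its call in 7 of 14 alternatives and dab2 in 9 of 13, voom and quantile normalization among those of dab2. Dropping mutant replicate 1 or 2 left 1 and 0 calls, dropping wild type replicate 1, 2 or 3 left 1, 0 and 2, and there were 1 with no filter and 2 with a filter of 5 FPKM. Without wild type replicate 2 none of the 4 kept its call. Both vldlr and dab2 passed the filter on low values only with the mutant libraries, where they are high. Neither kept its call with no filter. The adaptor genes ldlrap1a and ldlrap1b and the second ligase gene mylipb were below the filter, none above 1.46 FPKM in any library.

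The machinery that cuts SREBPs and degrades INSIG was listed together with the promoter factors NF-Y and Sp1. The only call of this list fell on an NF-Y gene, and no gene of the machinery itself passed. Of 19 tested genes 1 rose and 0 fell (2 and 0 unadjusted, 1 and 0 by voom), 5.26% against 11.4% of all tested genes, and the median log2 fold change was 0.00. The gene that rose was nfyc, a subunit of NF-Y, a factor that acts with SREBPs at promoters, at 28.1, 25.2 and 24.4 FPKM in mutant libraries and 14.6, 14.7 and 16.4 FPKM in wild type libraries (limma adjusted p = 0.0159). It lost the call when mutant replicate 1 or wild type replicate 2 was dropped, where the count was 0, and the count was 2 without mutant replicate 3. The protease genes mbtps1 and mbtps2, singled out for their role, averaged 12.4 ± 0.046 and 8.61 ± 1.47 FPKM in mutant libraries, against 11.9 ± 0.61 and 9.36 ± 0.39 FPKM in wild type libraries (SD, n = 3 each). Their limma adjusted p was 0.829 and 0.651.

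Genes of LXR and sterol efflux moved both ways. Of 15 tested 2 rose, 3 fell and 10 did not pass (2 higher and 5 lower unadjusted, 2 and 3 by voom), 33.3% beside 11.4% of all tested genes. The canalicular sterol exporter genes abcg5 and abcg8, whose products work as a pair, fell by 0.87 and 0.92 on the log2 scale, with abcg5 at 10.4, 7.16 and 9.64 FPKM in mutant libraries and 16.5, 17.5 and 17.9 FPKM in wild type libraries; their spans overlap each other, and neither passed without wild type replicate 2. The exporter gene abca1b rose, at 4.68, 4.82 and 1.95 FPKM in mutant libraries and 0.495, 0.172 and 1.01 FPKM in wild type libraries (limma adjusted p = 0.0185), as did the phospholipid transfer protein gene pltp, by 3.69 on the log2 scale. The call of pltp held in all 14 alternatives, and that of abca1b was lost with no filter and after dropping mutant replicate 1 or 2 or wild type replicate 2. Only with the mutant libraries, where it is high, did abca1b pass the filter on low values. The LXR gene nr1h3, singled out after its values were seen, had 4.47, 4.18 and 6.19 FPKM in mutant libraries and 11.5, 7.37 and 8.76 FPKM in wild type libraries (0.0444). The count was 3 without mutant replicate 1 or 2 and with no filter, and 1 without wild type replicate 2.

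Of 12 genes of endosomal cholesterol and its esterification, 2 fell and 0 rose (5 and 0 unadjusted, 3 and 0 by voom), 16.7% and so near the 11.4% of all tested genes. Both encode sterol acyltransferases, which store cholesterol as esters. For soat1 the values were 10.4, 10.03 and 8.997 FPKM in mutant libraries and 16.5, 25.0 and 28.1 FPKM in wild type libraries (limma adjusted p = 0.0155). For soat2 they were 49.0, 39.1 and 73.7 FPKM in mutant libraries and 97.4, 112.0 and 98.1 FPKM in wild type libraries (0.0352); igsf8 overlaps soat2, and the call of soat2 was lost in 7 of 14 alternatives. The count was 1 without mutant replicate 1 or 2, wild type replicate 1 or 3, with no filter, and 0 without wild type replicate 2, while median scaling gave 4.

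**Figure D4:**
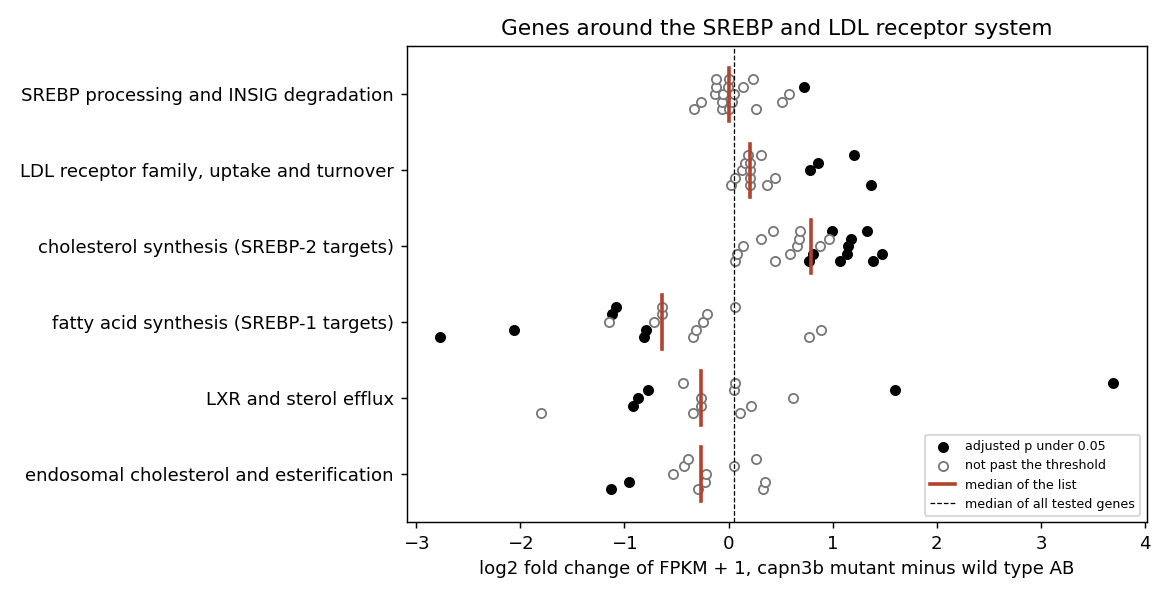
Log2 fold change of FPKM + 1, capn3b mutant minus wild type AB, of each tested gene in 6 lists around the members, with filled points past the adjusted threshold and a bar at each list's median. The cholesterol synthesis points lie to the right, around 0.79, and the fatty acid synthesis points mostly to the left, around -0.64.

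Profiles most like those of the called members were ranked by Pearson's r of log2(FPKM + 1) over the 6 libraries, among 9579 tested genes with a symbol. The genotypes form separate groups of points, so r is high for many genes: 300 reached 0.9 with srebf2 and 289 with ldlrb. Nearest to srebf2 were fktn, ST7 and C2, at 0.999, 0.992 and 0.985. Nearest to ldlrb were elk3, eef1db and RPS27L, at 0.997, 0.996 and 0.995. Of these 6, C2 and RPS27L passed the threshold themselves.

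**Figure D5:**
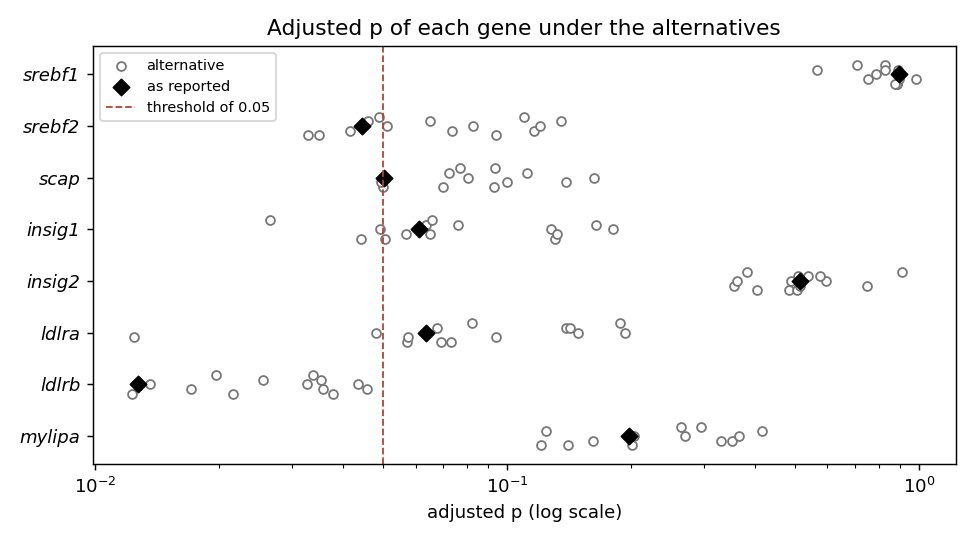
Adjusted p of each member as reported (diamond) and under each alternative (open circle), on a log axis, with the threshold of 0.05 as a dashed line. All circles of ldlrb lie below 0.05, from 0.0123 to 0.0456, whereas those of srebf2, scap, insig1 and ldlra fall on both sides.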

How the data were processed

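RNA was extracted from dissected adult livers and sequenced as Illumina libraries, per the labels' protocols. The authors deposited FPKM values per gene and, for each library, event lists with the FPKM of assembled transcripts. Per the submitters' processing notes, GRCz11 was the build and DESeq2 among the tools; the aligner, counter and annotation release were not given in the sources used.

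FPKM are not counts, so limma 3.58.1 (R 4.3.3) was run on log2(FPKM + 1), with genotype as the only term and an intensity trend, over the 11164 genes that reached 1 FPKM in 3 or more of the 6 libraries. Tests are two-sided, with Benjamini-Hochberg adjustment over all these genes and a threshold of 0.05. On the log2(FPKM + 1) scale, changes of low genes are understated. Depth and gene length were solved from the steps of the FPKM values, giving whole reads. Counting intervals (95%) cover only counting error, as PCR copies are not separate molecules. The procedure was checked on simulated data. In the check of the limma fit every gene had the same dispersion and no library stood apart. It therefore does not cover differences between libraries like those seen here.

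The members, lists and tests were chosen with earlier results of these data known. Named genes are the members, up to 4 called genes of each list by smallest p, and the 3 genes most like each called member. Of 25 such genes beside the members, 10 overlap another gene of the table. Alternatives tried were median scaling, a pseudocount of 0.1, the replicate block, quantile normalization, no filter, a filter of 5 FPKM, robust moderation, limma voom with TMM scaling on recovered reads, and each library left out. Python 3.11.15 with pandas 2.3.3, numpy 2.4.6, scipy 1.17.1 and matplotlib 3.10.9 was used. Sequences of the members were not used here.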

Additional observations from a re-analysis of the deposited data

How the results depend on the processing

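The call of ldlrb held in all 13 alternatives that tested it, and directions of all members but srebf1 held in every alternative run. The log2 fold change of srebf1 turned positive when mutant replicate 2 (0.137) or wild type replicate 1 (0.009) was dropped; its range with a library left out was -0.217 to 0.137. The call of srebf2 was lost under median scaling (0.611, adjusted p 0.0737), no filter (0.679, 0.0826) and voom (0.664, 0.0512), and with a library left out its value ran from 0.534 to 0.813. Calls were gained by scap under robust moderation (0.489, 0.0499) and voom (0.561, 0.0495), by insig1 under voom (0.827, 0.0492) and by ldlra under voom (-1.535, 0.048); with a library left out insig1 ran from 0.629 to 1.067 and ldlra from -1.973 to -1.193. The cause of these shifts was not tested.

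With no filter, which tests 23354 genes, 592 genes were called, and the counts were 1 member, 1 gene of the LDL receptor family, 5 of cholesterol synthesis, 3 of fatty acid synthesis, 3 of LXR and efflux and 1 of endosomal cholesterol. Members called were 1 under median scaling, 1 with the filter of 5 FPKM, where ldlrb, scap and mylipa are not tested, and 4 under voom. The filter of 5 FPKM gave 2 called genes of the LDL receptor family, and median scaling 4 of endosomal cholesterol. With a library left out, called genes numbered 414 to 1134 in all, 1 to 2 among members, 0 to 2 in SREBP processing, 0 to 3 in the LDL receptor family, 2 to 11 in cholesterol synthesis, 2 to 6 in fatty acid synthesis, 1 to 5 in LXR and efflux and 0 to 2 in endosomal cholesterol. Deviations of same-numbered libraries from their group means correlated at -0.045, -0.01 and -0.083, so no shared deviation was seen. The labels do not say whether the replicate numbers pair fish, and these correlations cannot settle it. With the replicate number as a block, srebf2 kept its value of 0.679 at an adjusted p of 0.0938, insig1 its 0.818 at 0.0441, and the counts were 950 in all, 1 in the LDL receptor family and 1 in endosomal cholesterol. Depth limits mylipa and ldlrb most, which rest on 50 to 103 and 70 to 261 reads a library.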
